A study of Mus musculus with 12 samples.

Results

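The Serpina3 cluster is a row of neighboring serpin genes on mouse chromosome 12. The 9 members described here were *Serpina3b*, *Serpina3c*, *Serpina3f*, *Serpina3g*, *Serpina3h*, *Serpina3i*, *Serpina3k*, *Serpina3m* and *Serpina3n*, out of 45563 gene symbols in the expression tables. They were chosen by their family name and their measured levels in these libraries, where their response to cytokines was already known. For this reason the change between non-stimulated (NS) and stimulated (St) cells is given as a description without a test, and tests are given for the differences between genotypes. All 9 symbols were listed in the tables of the 12 libraries, 1 of them without a read.

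The libraries held bulk RNA of primary oligodendrocyte precursor cells (OPCs), the proliferating cells that give rise to myelinating oligodendrocytes. Cortices of C57BL/6 pups were dissociated, cells carrying PDGFRα were captured on magnetic beads, and the cells were kept for 3 days in vitro with PDGF-AA and FGF2. The cultures were wild type (WT) or from TNFR2-/- mice, which lack TNF receptor 2 in all cells, and received TNF, IFNγ and IL1β at 25 ng/mL each for 3 h (WT St and TNFR2-/- St) or the PBS vehicle (WT NS and TNFR2-/- NS). Each of the 4 groups had 3 libraries, numbered as cultures 2, 3 and 4 for WT and 2, 4 and 5 for TNFR2-/-. The labels give pups of day 2 to 5 and the methods of the study give day 3 to 5, and neither says whether a culture number stands for 1 animal, 1 litter or a pool, so the spread between libraries may be partly technical.

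Serpins are protease inhibitors that offer a flexible loop, the reactive centre loop, as bait. The protease cuts the loop, the serpin changes shape and the enzyme is left trapped in a dead complex. Humans carry a single *SERPINA3* gene, which encodes the acute phase protein α1-antichymotrypsin, whereas in mice the gene has multiplied into a cluster whose copies differ most in the bait loop. *Serpina3n* is widely used as a marker of reactive astrocytes and of oligodendrocyte lineage cells in inflamed or injured tissue, and *Serpina3g* encodes an inhibitor that remains inside the cell and blocks cathepsins released from lysosomes.

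On GRCm38 the members spanned 286 kb of chromosome 12, between *Serpina3b* (bases 104127996 to 104139545) and *Serpina3n* (bases 104406729 to 104414329). *Serpina3f* (104214544 to 104221129), *Serpina3g* (104236245 to 104241939), *Serpina3h* (104247905 to 104253669) and *Serpina3i* (104263122 to 104269372) lay next to each other on the plus strand. *Serpina3c* (104146382 to 104153870) was the only member on the minus strand. *Serpina3k* (104338486 to 104346144) lay inside the interval of *Serpina3m* (104338486 to 104394257), and their exons shared 60 bases. GENCODE M21 lists *Serpina3h* as a transcribed unprocessed pseudogene and the other 8 as protein coding.

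The coding sequences of the 8 protein coding members were up to 92.1% identical, in the pair of *Serpina3f* and *Serpina3i*. *Serpina3k* and *Serpina3m* followed at 92.0%. The stretch that encodes the reactive centre loop was less alike than the whole coding sequence in 28 of 28 pairs. It was 80.0% identical between *Serpina3f* and *Serpina3n* against 86.0% for the whole coding sequence. Between *Serpina3g* and *Serpina3n* it was 62.8% against 85.2%, the latter over 648 aligned bases. The coding sequence used for *Serpina3g* had 744 bases against 1254 in *Serpina3n*, so its pairs cover only part of the other coding sequences. The loop stretches of the 4 members with the most reads are shown because the copies were less alike there than over the whole coding sequence. Capitals mark bases that differ from *Serpina3n*, and the sequences are the coding strand of GENCODE M21 on GRCm38, at chr12:104413448-104413525, chr12:104220245-104220325, chr12:104241072-104241149 and chr12:104268480-104268557 in the order of the lines.
Serpina3n: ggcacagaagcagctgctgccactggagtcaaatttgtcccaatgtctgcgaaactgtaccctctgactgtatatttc
Serpina3f: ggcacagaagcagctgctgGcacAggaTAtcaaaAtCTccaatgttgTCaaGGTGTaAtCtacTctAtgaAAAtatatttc
Serpina3g: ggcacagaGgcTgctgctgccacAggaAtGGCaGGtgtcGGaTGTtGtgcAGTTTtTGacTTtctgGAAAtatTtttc
Serpina3i: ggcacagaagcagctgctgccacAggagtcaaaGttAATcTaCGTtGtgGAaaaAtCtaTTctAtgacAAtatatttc

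The start of the loop, which encodes the hinge on which the serpin folds, was nearly the same in all 4 lines, and the differences lay in the later part that a protease would meet. With inserted and missing bases counted, *Serpina3i* differed from *Serpina3n* at 19 positions of the loop, *Serpina3f* at 24 and *Serpina3g* at 29. Inserted bases are in capitals, and the bases missing from *Serpina3f* cannot be shown in its line. The percentages of identity above leave such gaps out, so they are not on the same footing as these counts. Despite this likeness the reads could be told apart for most of each transcript. Sequences of 100 bases that also occur in another gene made up 3.40% of *Serpina3f*, 3.49% of *Serpina3g*, 3.60% of *Serpina3h*, 2.25% of *Serpina3i*, 4.85% of *Serpina3k*, 6.09% of *Serpina3m*, 0.204% of *Serpina3n* and none of *Serpina3b* and *Serpina3c*. Values of the members with shared sequence carry this uncertainty, since how shared reads were divided is not given in the sources used here. It can be larger than these shares for members with few reads. *Serpina3f* shares sequence with *Serpina3h* and *Serpina3i* and had 12254 to 12904 reads in WT St libraries. *Serpina3h* had 52 to 116 and *Serpina3i* 99 to 170 reads there, and the part of shared reads in these counts was not tested.

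The sequences before the start sites were compared because *Serpina3f*, *Serpina3g* and *Serpina3i* had almost no reads in NS cells, where *Serpina3n* was already read. RefSeq windows (GRCm38.p6, 250 bases before to 50 bases after a start site) were at hand for 6 of the 9 members, namely *Serpina3b*, *Serpina3c*, *Serpina3f*, *Serpina3g*, *Serpina3i* and *Serpina3n*, and the windows of *Serpina3h*, *Serpina3k* and *Serpina3m* were not analysed here. Of the 2 windows of *Serpina3f*, positions refer to the more upstream one. The stretches below run 5′ to 3′ along the coding strand. They cover chr12:104214364-104214499, chr12:104236052-104236146, chr12:104262962-104263101 and chr12:104406528-104406663 on the plus strand. Capitals mark the motifs found in them.
Serpina3f: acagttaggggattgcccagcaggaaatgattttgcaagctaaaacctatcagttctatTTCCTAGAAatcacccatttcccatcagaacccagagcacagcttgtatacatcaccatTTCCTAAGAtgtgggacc
Serpina3g: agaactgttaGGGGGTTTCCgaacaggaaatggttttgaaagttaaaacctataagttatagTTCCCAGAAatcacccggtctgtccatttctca
Serpina3i: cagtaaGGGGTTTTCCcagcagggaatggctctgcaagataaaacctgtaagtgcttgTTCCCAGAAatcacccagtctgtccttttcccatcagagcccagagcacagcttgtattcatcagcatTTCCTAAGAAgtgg
Serpina3n: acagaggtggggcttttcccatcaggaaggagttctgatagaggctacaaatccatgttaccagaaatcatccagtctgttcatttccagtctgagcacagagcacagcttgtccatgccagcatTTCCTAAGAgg

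The motif TTCNNNGAA, the letters of a gamma activated sequence, was present in *Serpina3f* from base −121, in *Serpina3g* from base −33 and in *Serpina3i* from base −102, counted from the start site on the coding strand. It was in none of the windows of *Serpina3b*, *Serpina3c* and *Serpina3n*. Over all windows on both strands, 9.55% of 27025 genes held it. Aligned to the 9 bases TTCCCAGAA of *Serpina3i*, with positions counted from 1 at the 5′ end, *Serpina3g* had the same letters, *Serpina3f* carried C5T, which lies in the free middle of the motif, and *Serpina3c* and *Serpina3n* both carried C3A, which breaks it. *Serpina3b* carried T2C, C3A and G7T. A match is a description of letters, and binding was not measured.

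The NF-kappaB consensus was found in *Serpina3g* from base −85 and in *Serpina3i* from base −154, against 9.55% of all genes. The wider spaced TTCNNNNGAA was found in *Serpina3i* only, from base −34, where it overlaps the motif named next, against 8.01% of genes. GAAANNGAAA, the core of the response element of type I interferon, was in none of the 6 windows and in 3.99% of genes. The 9 bases TTCCTAAGA, which were noticed after the windows had been compared, were in all 6 windows (from base −62 in *Serpina3f*, −34 in *Serpina3i*, −55 in *Serpina3n*, −52 in *Serpina3c*, −56 in *Serpina3b* and 36 in *Serpina3g*) and in 0.385% of genes. TATAAA was found in *Serpina3b* from base −28, in *Serpina3c* from base −132 and in 15.7% of genes. In *Serpina3f* it was found on the opposite strand only, from base −186.

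Library totals ranged from 26886878 to 30335265 read pairs. OPC markers summed to 8143 to 11199 RPM (read pairs per 1000000 of the library total) with none of 12 at 0, and microglia and macrophage markers to 10.2 to 13.2 RPM with 5 to 8 of 14 at 0. The 12 astrocyte markers summed to 2059 to 2543 RPM in WT and 3120 to 4897 in TNFR2-/- libraries, with none at 0. Culture 5 of TNFR2-/- stood apart with the highest sums in both treatments. *Tnfrsf1b*, which encodes TNFR2, had 12 to 24 reads in WT NS, 61 to 145 in WT St, 213 to 346 in TNFR2-/- NS and 282 to 356 in TNFR2-/- St libraries. This goes against the labels. Where in the gene these reads fall is not known, so every direction between genotypes below refers to the libraries as labelled.

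The cluster as a whole was read far more after cytokines. All 9 members together took 11.8 to 18.0 RPM in WT NS and 13.2 to 44.9 in TNFR2-/- NS libraries. After stimulation they took 711 to 731 in WT and 665 to 1504 in TNFR2-/- libraries. In bulk RNA a change in the number of cells of a type and a change in RNA per cell cannot be told apart. Going by RPM, all St libraries lay above all NS libraries for 7 of the 9 members in WT, and 13.7% of 18081 genes tested did so. In TNFR2-/- this held for 6 of 9 members against 12.7% of genes. These shares are given for scale, since the members were chosen with this change in view. The WT count includes *Serpina3c*, for which an NS and a St library tied in reads.

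*Serpina3f* had the most reads of all members in WT St cells and almost none in WT NS cells. It had 1, 3 and 0 reads in the WT NS libraries and 12904, 12433 and 12254 in the WT St libraries. In TNFR2-/- it had 0, 41 and 24 reads in NS and 11227, 12931 and 14436 in St libraries. The St libraries lay close to each other in both genotypes, and the NS libraries were at or near 0 apart from TNFR2-/- cultures 4 and 5. Over the summed reads the level was 9052-fold higher in WT St than in WT NS cells, with a 95% interval of 3535 to 33225 that covers counting error only. With so few NS reads the ratio was 25004 without WT NS culture 3 and 5930 without WT NS culture 4. In TNFR2-/- the ratio was 605 (interval 475 to 785), the smaller ratio going with the 65 reads of the NS libraries rather than with a lower St level. Over libraries left out the TNFR2-/- ratio ranged from 404 to 1092, the latter without TNFR2-/- NS culture 4.

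*Serpina3n*, the member known from reactive glia, was the only one that NS cells expressed at a level well above 0. It had 536, 313 and 358 reads in WT NS and 8415, 8415 and 8973 in WT St libraries. In TNFR2-/- it had 394, 622 and 1332 reads in NS and 8095, 9803 and 27889 in St libraries. Both high values of TNFR2-/- came from culture 5, and the other 2 cultures lay near the WT range. The summed level was 20.6-fold higher in WT St than WT NS (interval 19.4 to 21.8) and 19.9-fold higher in TNFR2-/- St than TNFR2-/- NS (interval 19.1 to 20.7). The latter was 30.6 without the NS library of culture 5 and 11.5 without its St library. Taken culture by culture, St over NS was 15.7, 24.1 and 25.0 in WT cultures 2, 3 and 4, and 20.6, 15.8 and 22.1 in TNFR2-/- cultures 2, 4 and 5. Culture 5 thus had a fold within the range of the others, and its level was high before and after the cytokines.

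*Serpina3g*, the intracellular cathepsin inhibitor, was read almost only after stimulation. It had 0 reads in all WT NS libraries and 371, 320 and 290 in WT St libraries. In TNFR2-/- the NS libraries had 0, 0 and 1 reads and the St libraries 326, 342 and 280. The St values of the genotypes overlapped and varied little. Against the limit of 3 reads that a count of 0 over the group allows, *Serpina3g* was at least 315-fold higher in WT St, and the ratio was 966 (interval 173 to 38214) in TNFR2-/-. The WT bound was 206 without WT NS culture 2 or 4. The TNFR2-/- ratio rested on 1 NS read and was 644 without NS culture 4 and at least 214 without NS culture 5, which held that read.

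*Serpina3i*, the closest relative of *Serpina3f* in coding sequence, was the member whose St libraries did not overlap between genotypes. It had 0, 1 and 0 reads in WT NS and 170, 124 and 99 in WT St libraries. In TNFR2-/- it had 0, 3 and 1 reads in NS and 263, 222 and 440 in St libraries. The lowest TNFR2-/- St library lay above the highest WT St library. The ratio of St to NS was 379 (interval 67.5 to 14990) in WT and 236 (interval 91.8 to 867) in TNFR2-/-. In WT it was 248 without NS culture 2 or 4 and at least 87.1 without NS culture 3, which held the only NS read. In TNFR2-/- it ranged from 158 to 628 over libraries left out, the latter without NS culture 4.

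The pseudogene *Serpina3h*, which lies between *Serpina3g* and *Serpina3i*, was higher in St cells like its neighbors in both genotypes. It had 3, 0 and 0 reads in WT NS and 116, 52 and 56 in WT St libraries, a ratio of 71.9 (interval 24.3 to 351). In TNFR2-/- it had 2, 1 and 4 reads in NS and 63, 100 and 85 in St libraries, a ratio of 36.1 (interval 17.3 to 90.8). The WT ratio was 47.1 without NS culture 4 and at least 47.1 without NS culture 2, and the TNFR2-/- ratio was 56.1 without NS culture 5. Of its sequences of 100 bases, 2.70% also occur in *Serpina3g* and 2.03% in *Serpina3f*, and the part that reads shared with these genes have in its count was not tested.

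The remaining 4 members were at the limit of detection. *Serpina3c* had 1, 0 and 0 reads in WT NS and 3, 1 and 6 in WT St libraries. WT NS culture 2 and WT St culture 3 tied at 1 read, so its lack of overlap in RPM came from their library totals. In TNFR2-/- it had 0 reads in all NS libraries and 4, 4 and 42 in St libraries, with the 42 again in culture 5. *Serpina3m* had 0 reads in WT NS and 3, 3 and 5 in WT St libraries, and in TNFR2-/- 1, 0 and 0 in NS and 0, 0 and 6 in St libraries. *Serpina3k*, known from liver as a kallikrein binding protein, had a single read in TNFR2-/- St culture 4, and *Serpina3b* had none in any library. *Serpina3b* and *Serpina3k* were thus not detectable at this depth, which does not show that they are absent.

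**Figure D1:**
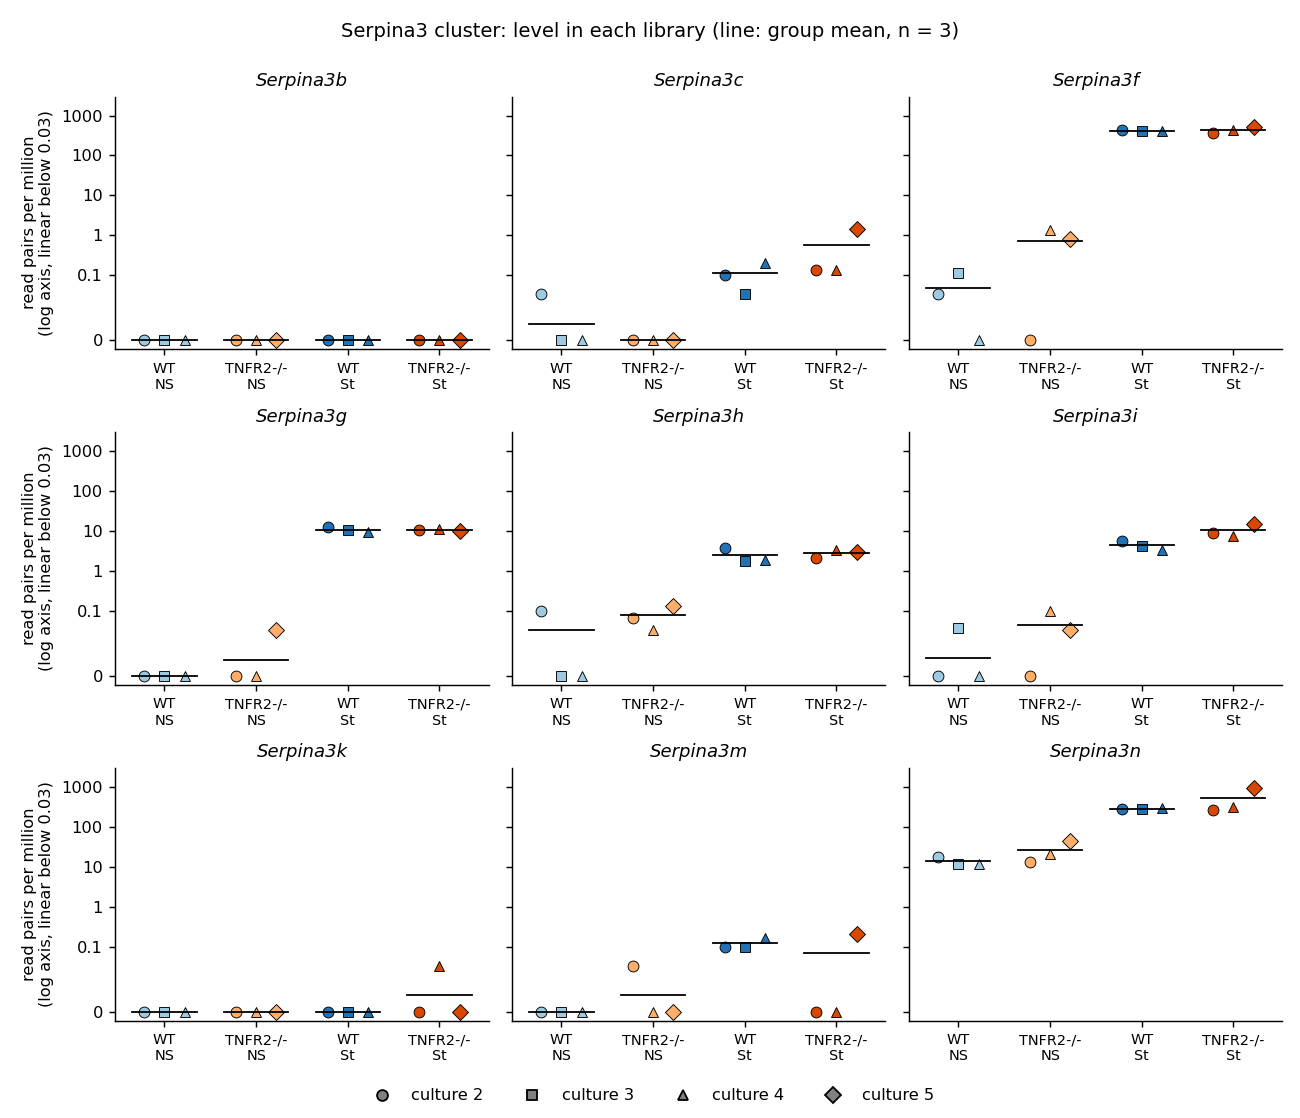
RPM (read pairs per 1000000, log axis, linear below 0.03) of each member in the 12 libraries, with 1 point per library shaped by culture number and a line at the group mean (n = 3). *Serpina3f*, *Serpina3g*, *Serpina3h* and *Serpina3i* lie between 0 and 1.35 in NS and at 1.73 or higher in St cells, and *Serpina3n* in NS cells lies between 11.6 and 43.9. The diamonds of TNFR2-/- culture 5 stand above the other St libraries in *Serpina3c*, *Serpina3i* and *Serpina3n*, and by a smaller margin in *Serpina3f* and *Serpina3m*.

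To compare members with each other, reads were divided by exon length, giving RPM per kb of exon. The divisors that the authors used in their FPKM were not used for this, because they bore no relation to exon length (64 bases for *Serpina3f* with 2290 exon bases, 2035 for *Serpina3h* with 1434). In WT St cells *Serpina3f* was highest at a level of 182 ± 4.84 per kb (SD, n = 3), followed by *Serpina3n* at 139 ± 5.09 without overlap. *Serpina3g* was far lower at 5.17 ± 0.65. *Serpina3i* at 1.96 ± 0.54 and *Serpina3h* at 1.73 ± 0.83 overlapped each other.

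In TNFR2-/- St cells the order of the leading pair was not resolved. *Serpina3n* was at a level of 253 ± 189 per kb and *Serpina3f* at 190 ± 28.3 (SD, n = 3), and the libraries overlapped. *Serpina3g* at 5.05 ± 0.38 and *Serpina3i* at 4.71 ± 1.92 also overlapped, and *Serpina3h* lay below them at 1.94 ± 0.43. In NS cells *Serpina3n* led alone, at 6.69 ± 1.70 in WT and 12.5 ± 7.79 in TNFR2-/-, and no other member exceeded a mean of 0.31 per kb.

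**Figure D2:**
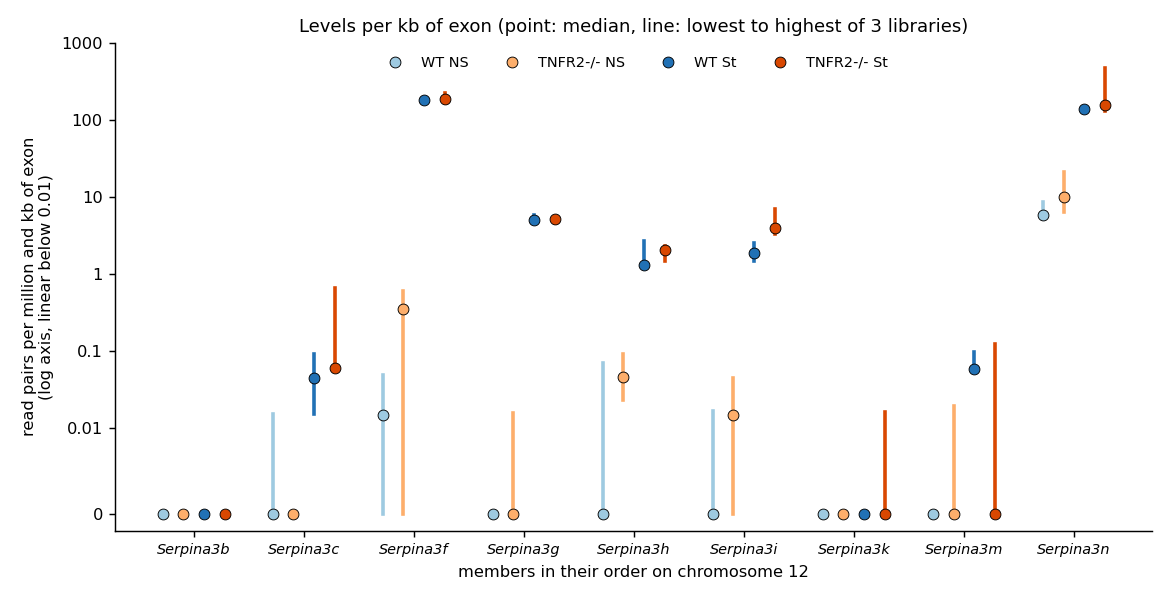
Level of each member per kb of exon (log axis, linear below 0.01), in chromosomal order, for the 4 groups; points are medians and lines run from the lowest to the highest of 3 libraries. *Serpina3f* and *Serpina3n* lie above 100 after stimulation, *Serpina3g*, *Serpina3h* and *Serpina3i* between them lie at 1 to 10, and *Serpina3b* is at 0.

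The make-up of the cluster changed with stimulation. Per kb of exon, *Serpina3n* made up 98.9% to 100% of the summed level in the WT NS libraries and 93.8% to 99.0% in the TNFR2-/- NS libraries. After cytokines *Serpina3f* held 53.9% to 56.1% in WT and *Serpina3n* 40.6% to 43.8%. TNFR2-/- cultures 2 and 4 had nearly the same split, with 53.6% and 52.6% for *Serpina3f*. Culture 5 alone was reversed, with 31.2% for *Serpina3f* and 66.8% for *Serpina3n*, although its level of *Serpina3f* (503 RPM) was not below that of the other libraries (374 to 429).

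**Figure D3:**
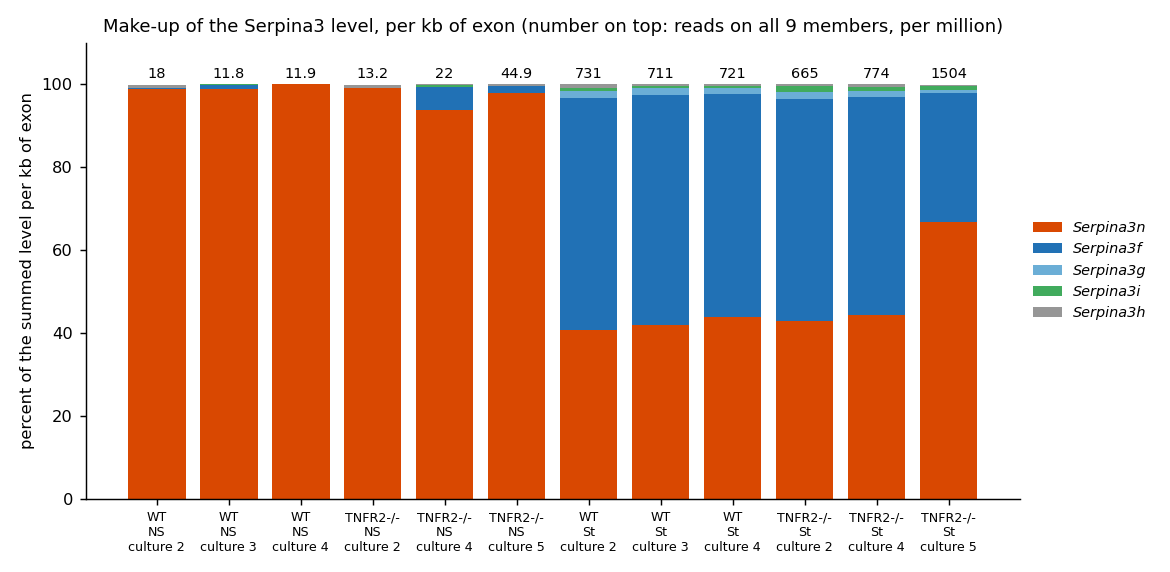
Percent of the summed level per kb of exon that each of 5 members made up in each library (the other 4 members are too low to see), with the RPM of all 9 members written on top of each bar. NS bars are almost wholly *Serpina3n*, St bars are mostly *Serpina3f*, and TNFR2-/- St culture 5 is mostly *Serpina3n*.

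The difference between genotypes was tested with limma on log2(FPKM + 0.5) over all 12 libraries, with p-values adjusted over 18081 genes. Genes with an adjusted p up to 0.05, at least a 1.5-fold difference in either direction and 1 FPKM or more on average were called. *Serpina3b* and *Serpina3k* were below the filter of 0.1 FPKM and were not tested. *Serpina3c*, *Serpina3h* and *Serpina3m* were tested but had means below 1 FPKM, so only *Serpina3f*, *Serpina3g*, *Serpina3i* and *Serpina3n* could be called. On single values 3 against 3 libraries cannot give an exact permutation p below 0.1.

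Without cytokines no member was called between TNFR2-/- NS and WT NS by limma, and 2.9% of all genes tested were called. The unadjusted p was under 0.05 for none of the 7 members tested and for 30.2% of all genes. No member had all its TNFR2-/- NS libraries above its WT NS libraries, as 19.9% of genes tested had. *Serpina3f* had the largest difference, 2.31 ± 1.13 (SE) on the log2 scale with a 95% interval of −0.19 to 4.80 (limma adjusted p = 0.199). TNFR2-/- culture 2 had 0 reads, like WT culture 4, so that the groups overlapped. Without that library the difference was 3.996 (adjusted p = 0.0139) and passed the test, so the call depended on 1 library. *Serpina3n* differed by 0.75 ± 0.49 (interval −0.35 to 1.84, limma adjusted p = 0.343). *Serpina3g*, *Serpina3h* and *Serpina3i* had at most 4 reads in any NS library, and their levels could not be compared at this depth.

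After cytokines 0 of the members were called by limma between TNFR2-/- St and WT St, against 1.8% of all genes tested. The unadjusted p was under 0.05 for 1 of the 7 members tested and for 26.7% of all genes. *Serpina3i* came nearest. It was at 8.76, 7.34 and 15.3 RPM in TNFR2-/- St cultures 2, 4 and 5 and at 5.65, 4.13 and 3.29 in WT St cultures 2, 3 and 4, with no overlap. TNFR2-/- libraries all lay above WT libraries in 15.4% of genes tested. The log2 difference was 1.21 ± 0.37 (SE), with an interval of 0.39 to 2.04, an unadjusted limma p of 0.00797 and an adjusted p of 0.0756. A pseudocount of 1 FPKM (adjusted p = 0.0451) and voom on the reads (adjusted p = 0.0307) brought it past the threshold, and the adjusted p was between 0.0307 and 0.313 over all alternatives. Without both libraries of culture 5 the difference was 0.90 (adjusted p = 0.212).

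*Serpina3f* and *Serpina3g* had St levels that overlapped between genotypes. The log2 difference of *Serpina3g* was −0.027 ± 0.17 with a narrow interval of −0.41 to 0.35 (limma adjusted p = 0.939). That of *Serpina3f* was 0.051 with an interval of −2.44 to 2.55 (adjusted p = 0.985), where the width came from its NS libraries near 0. Fitted over the 6 St libraries alone its standard error was 0.11 around the same difference. *Serpina3n* differed by 0.62 ± 0.49 (interval −0.47 to 1.71, adjusted p = 0.452), and by 0.048 (adjusted p = 0.920) without both libraries of culture 5.

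*Serpina3h* differed by 0.16 (interval −0.29 to 0.61, limma adjusted p = 0.656). For this gene the pseudocount of 0.5 FPKM was worth 30.3 reads, which draws the difference toward 0. *Serpina3c* differed by 1.13 (interval −0.23 to 2.49, adjusted p = 0.264) and *Serpina3m* by −1.18 (interval −2.54 to 0.19, adjusted p = 0.250), both on a handful of reads. Without culture 5 of the TNFR2-/- St libraries *Serpina3m* differed by −2.09 (adjusted p = 0.0242), with 0 reads in the 2 libraries left, and its mean stayed below the level for a call.

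The change with cytokines itself was compared between genotypes as an interaction. None of the 7 members tested was called by limma, and 0.00553% of all genes, a single gene, was. Adjusted p-values of the members were at least 0.727, and none of the 7 had an unadjusted p under 0.05, as 7.95% of all genes had. The interaction of *Serpina3n* was −0.13 with an interval of −1.67 to 1.42, and that of *Serpina3i* was 0.79 with an interval of −0.37 to 1.95. These intervals come from a fit that does not pair the NS and St libraries of a culture, so differences in level between cultures widen them. For *Serpina3n* the interval holds differences of more than 2-fold in either direction. Taken culture by culture, its St over NS folds were closer, at 15.7 to 25.0 in WT and 15.8 to 22.1 in TNFR2-/-.

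**Figure D4:**
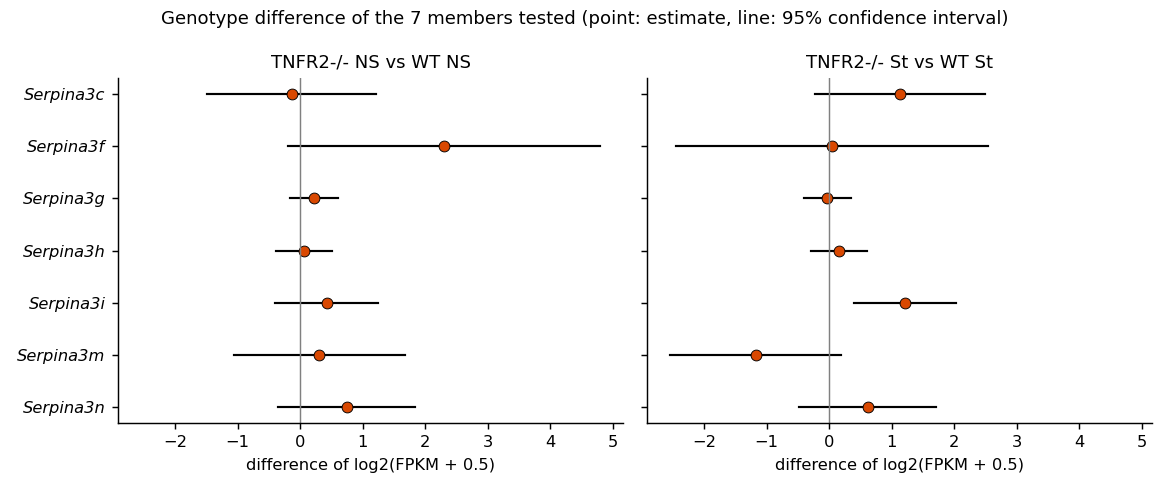
Difference between TNFR2-/- and WT libraries of the 7 members tested, as a difference of log2(FPKM + 0.5), in NS (left) and St cells (right); points are estimates and lines 95% confidence intervals from limma over 12 libraries. The interval lies wholly above 0 for *Serpina3i* in St cells and holds 0 in the other 13 cases.

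In culture 5 of TNFR2-/-, 3 members were high, and so were astrocyte and oligodendrocyte markers. Against the mean of the other 2 TNFR2-/- cultures, *Serpina3n* was 2.61-fold higher in NS and 3.27-fold higher in St cells. *Serpina3i* was 1.90-fold and *Serpina3c* 11.02-fold higher in St cells, the latter on 42 reads against 4 and 4. *Serpina3f* (1.26-fold), *Serpina3h* (1.10-fold) and *Serpina3g* (0.880-fold) moved less. Culture 5 was also the highest St library for *Serpina3f* and, on 6 reads, for *Serpina3m*. The 12 astrocyte markers summed to 1.51-fold higher in both treatments, with *Gfap*, the astrocyte filament protein, 10.7-fold higher in NS and 6.52-fold in St, *Aqp4*, the water channel of astrocyte endfeet, 3.49-fold and 2.92-fold, and the glutamate transporter *Slc1a3* 1.18-fold and 1.25-fold. Not all astrocyte markers moved this way, and *Sox9* was not higher in culture 5. The 10 oligodendrocyte markers summed to 1.61-fold higher in NS and 1.62-fold in St, and the 14 vascular markers to 0.375-fold and 0.360-fold. *Acta2* and *Tagln*, both lower in culture 5, made up most of the vascular sum, whereas *Flt1* of the same list was not lower. OPC, neuron and microglia markers were between 0.968-fold and 1.12-fold. The part that any of these cell types has in the *Serpina3n* level was not tested.

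The astrocyte markers also differed between genotypes without culture 5. In the other 2 TNFR2-/- cultures they summed to 1.39-fold (NS) and 1.49-fold (St) the WT mean. The oligodendrocyte markers summed to 1.08-fold (NS) and 0.866-fold (St) and the vascular markers to 0.749-fold (NS) and 0.613-fold (St) in these cultures. There *Serpina3n* was at 1.22-fold (NS) and 1.04-fold (St), *Serpina3f* at 0.962-fold (St) and *Serpina3g* at 1.02-fold (St) the WT mean, whereas *Serpina3i* was at 1.85-fold (St). Between NS and St cells the astrocyte marker sums went from 2200 to 2543 RPM to 2059 to 2143 RPM in WT, and from 3131 to 4897 RPM to 3120 to 4762 RPM in TNFR2-/-.

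**Figure D5:**
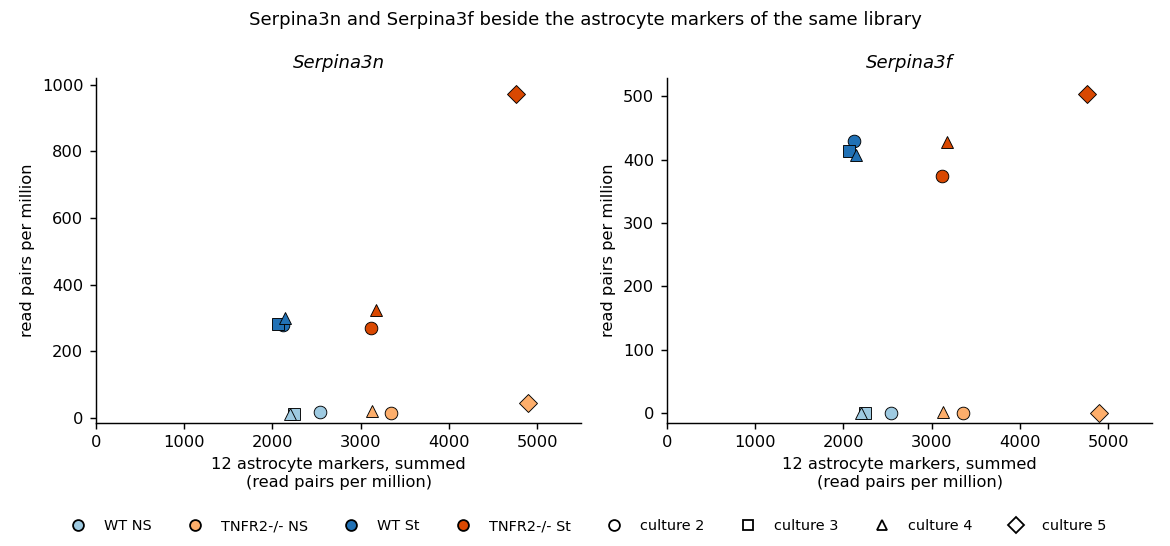
Level of *Serpina3n* (left) and *Serpina3f* (right) in RPM against the summed level of 12 astrocyte markers in the same library; color gives the group and shape the culture. TNFR2-/- culture 5 (diamonds) is farthest right at 4897 and 4762 and is highest in *Serpina3n*, at 43.9 in NS and 972 in St cells, whereas its *Serpina3f* is near that of the other St libraries.

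The genes with the most similar pattern over the 12 libraries were sought for each of the 4 leading members. This is a description, because stimulation splits the 12 libraries into 2 sets and any strongly induced gene correlates highly. *Serpina3f* was most like *Gm4841*, *Ifi47*, *Gm4951*, *Tgtp2* and *Igtp* (Pearson r of 0.984 to 0.991). *Serpina3g* was most like *Nlrc5*, *Mlkl*, *Olfr56*, *Psmb8* and *Irf1* (r of 0.997). *Serpina3i* was most like *Gbp4*, *Socs2*, *BC023105*, *Iigp1* and *Has2* (r of 0.994 to 0.995). *Serpina3n* was most like *Parp11*, *Grb14*, *Trafd1*, *Samd9l* and *Herc6* (r of 0.989 to 0.996). No gene was in more than 1 of these 4 lists.

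The other clade A serpins of the same region were almost silent. Of 18 such genes, *Serpina3a*, *Serpina1b* and *Serpina5* had 0 reads in every library and *Serpina3j* had at most 1. The pseudogene *Serpina3e-ps*, next to *Serpina3c*, was the only one of 3 genes tested that was called, with FPKM of 0.152 ± 0.264 in WT NS, 4.25 ± 1.60 in WT St, 0.603 ± 0.689 in TNFR2-/- NS and 5.90 ± 3.17 in TNFR2-/- St (SD, n = 3), on at most 19 reads. It rose in WT (log2 fold change of 2.88, limma adjusted p = 0.00331) and in TNFR2-/- (2.60, adjusted p = 0.00425). Of *Serpina3f*, 1.41% of the sequences of 100 bases also occur in this pseudogene. *Serpina3f* had 12254 to 12904 reads in WT St and 11227 to 14436 in TNFR2-/- St libraries. The part that shared reads have in the count and the rise of the pseudogene was not tested. Over all genes 4.58% rose and 2.95% fell in WT, and 5.41% rose and 4.68% fell in TNFR2-/-.

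Without a block for culture, none of the genes that flank the serpins was called as rising. Of 9 tested, 0 rose by limma and 1 fell in each genotype. When culture was fitted as a block, 2 were called in WT, counted in either direction. Besides *Clmn*, only *Ifi27*, which was higher in St cells, had both a 1.5-fold change in WT and a mean of 1 FPKM or more. *Clmn* went from 34.8 ± 4.86 FPKM in WT NS to 20.9 ± 3.26 in WT St (log2 fold change of −0.72, limma adjusted p = 0.0464). *Ifi27*, an interferon induced gene between *Ddx24* and *Ppp4r4*, was at 81.2 ± 12.7 and 131 ± 16.6 FPKM without passing the test (adjusted p = 0.0686). *Otub2*, *Ppp4r4*, *Dicer1* and *Ddx24* had log2 fold changes of −0.36, −0.39, −0.20 and 0.07 in WT.

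Among serpins outside the cluster, 4 of 15 tested rose in each genotype and none fell. *Serping1*, the inhibitor of the first complement protease, went from 0.146 ± 0.080 to 4.97 ± 1.51 FPKM in WT (limma log2 fold change of 3.05, adjusted p = 2.13e-06). *Serpinb1a* and *Serpinb9*, which also rose, inhibit neutrophil proteases and granzyme B. *Serpinh1*, the collagen chaperone, and *Serpini1*, neuroserpin, had log2 fold changes of −0.15 and −0.0025 in WT. None of the 15 was called between genotypes in St cells, and 1 was when culture was fitted as a block.

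None of the proteases tested was called as rising. *Ctsg*, *Elane* and *Gzmb*, the neutrophil and lymphocyte proteases usually tested against *Serpina3n*, had at most 1 read in any library. Of 14, 1 fell in each genotype, namely *Prss23* (log2 fold change of −0.60 in WT with a limma adjusted p of 0.0444, and −0.80 in TNFR2-/-). The lysosomal cathepsins were present throughout, *Ctsb* at 2476 ± 38.4 FPKM in WT NS and 2547 ± 69.2 in WT St and *Ctsl* at 88.0 ± 2.19 and 86.7 ± 5.74.

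Of the acute phase genes tested, 11 of 15 rose in each genotype and none fell. *Lcn2*, an iron carrier binding protein of the acute phase, went from 0.107 ± 0.026 to 13.5 ± 2.27 FPKM in WT and from 0.104 ± 0.048 to 37.5 ± 29.3 in TNFR2-/-. *C3*, the central complement component, reached 8.18 ± 2.28 FPKM in WT St and 11.1 ± 7.61 in TNFR2-/- St, and *Il6* 7.63 ± 2.07 and 18.5 ± 9.77. *Saa3* was below the filter, with at most 18 reads. Between genotypes 2 of 15 were higher in TNFR2-/- St (*Steap4* and *Mt2*) and 3 of 15 in TNFR2-/- NS (*C4b*, *Mt1* and *Mt2*), where 1.18% and 1.62% of all genes were higher.

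Of the receptors and transcription factors of the IFNγ, IL1, TNF and STAT3 pathways, 24 of 27 tested rose in each genotype and none fell. *Irf1*, the interferon regulatory factor that opens many IFNγ targets, rose by 7.28 on the log2 scale in WT and 6.69 in TNFR2-/-. *Stat3* rose by 1.73 and 1.55, *Socs3*, a feedback inhibitor of cytokine receptors, by 4.32 and 4.34, and *Nfkbia*, the inhibitor of NF-kappaB, by 2.70 and 3.27 (limma adjusted p of at most 8.21e-08 for each). In St cells only *Il1r1*, the IL1 receptor, was called between genotypes, at 10.96 ± 2.96 FPKM in WT and 26.2 ± 8.04 in TNFR2-/-. That count was 2 with culture as a block and 0 without culture 5. In NS cells 5 were higher in TNFR2-/- (*Il1r1*, *Osmr*, *Irf1*, *Cebpb* and *Bcl3*) and 1 was lower (*Il1rap*), against 1.62% and 1.28% of all genes.

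Of 24 genes known from reactive astrocytes, 16 rose in each genotype and none fell. *Cxcl10*, an interferon induced chemokine, went from 1.60 ± 0.66 to 2408 ± 269 FPKM in WT. *Osmr*, the oncostatin M receptor, was at 163 ± 37.6 FPKM in WT St and 484 ± 191 in TNFR2-/- St, and *Steap4* at 8.67 ± 2.56 and 24.7 ± 12.1. *Gfap* itself did not pass the test in either genotype (log2 fold changes of 0.96 and 0.46, limma adjusted p = 0.592 and 0.761). Between genotypes in St cells 3 of 24 were higher (*Steap4*, *Cd44* and *H2-T23*) and 1 lower (*Gbp2*) in TNFR2-/-, against 1.18% and 0.614% of all genes. In NS cells *Cxcl10* and *Osmr* were higher in TNFR2-/- and none was lower.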

How the data were processed

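The deposited values were FPKM, made by the authors from read pairs that were trimmed with Trim Galore, aligned to GRCm38 (Ensembl annotation) and counted with STAR; EdgeR gave the authors' own calls, which were not used. All sample columns were used (0 left out). Of 45792 entries, 229 with 1 of 99 repeated symbols were left out. Whole reads were recovered from the FPKM for 26636 of 26636 genes above 0 in at least 2 libraries (within 0.01 of a whole number). NS and St libraries were in separate tables, both scaled by library total. The divisor in bases came out whole for 99.98% of 16901 genes and did not follow exon length, so the filter and the pseudocount weigh differently on each gene. Strand and the treatment of reads that fit several genes are not given in the sources used here.

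log2(FPKM + 0.5) was fitted with limma 3.58.1 (statmod 1.5.0, R 4.3.3) as 4 group means with a trended prior, for genes averaging 0.1 FPKM or more, with Benjamini-Hochberg adjustment over all of them. St over NS ratios used summed reads over summed library totals, with exact 95% intervals; a group at 0 was set to 3 reads and the ratio written as a lower bound. Sequences were read from GENCODE M21 and RefSeq with Python 3.11.15 (Biopython 1.88, pandas 2.3.3, numpy 2.4.6, scipy 1.17.1), and figures were drawn with matplotlib 3.10.9. Intervals of the St over NS ratios cover counting error only, whereas those of genotype differences and the interaction come from the limma fit.

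Members, gene lists and the genes named (all members, named genes of each list, and the 5 genes most correlated with each member of at least 100 reads) were chosen with earlier results of these data known; *Serpina3e-ps*, other genes of the lists named beside a count and the markers named singly were added after their values were seen. On simulated data with 18056 genes, the St genotype comparison called 86 of 100 genes changed 2-fold, 100 of 100 changed 4-fold and 4 unchanged genes. The simulation had a fixed spread for all genes and no differences between cultures. Its changed genes were drawn from well read genes with a mean of 1 FPKM or more. These counts therefore do not give the power of the tests for the members. Culture numbers were checked for pairing over 13554 genes: NS and St libraries of 1 number and genotype correlated at 0.34 to 0.65 in their deviations from group means (6 pairs), other numbers at −0.45 to 0.09 (12 pairs), and equal numbers across genotypes at −0.08 to 0.20 (8 pairs). The number therefore marks a culture within a genotype and pairs NS with St. Alternatives were other pseudocounts, filters and scalings, voom on reads, a fit over 6 libraries, a replicate block and leaving out libraries; leaving out culture 5 and calling at 2 RPM were added after seeing the data. Some genes of the lists are counted but not reported here by name.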

Additional observations from a re-analysis of the deposited data

How the results depend on the processing

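No setting called a member in the interaction, and in St cells no library left out called one. Members called between TNFR2-/- NS and WT NS were 0 in all settings except without TNFR2-/- NS culture 2, where there was 1 (range 0 to 1 over libraries left out). In St cells there was 1 with a pseudocount of 1 FPKM and 1 with voom, *Serpina3i* in both. With a replicate block for culture no member was called in any comparison, and the block correlation was 0.56. Under the block the count of flanking genes called in WT St vs WT NS was 2, and in TNFR2-/- St vs WT St the counts were 1 for other serpins and 2 for regulators; it moved no other count by more than 1.5 times.

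With voom the counts in TNFR2-/- St vs WT St were 2 for other serpins, 6 for acute phase genes, 3 for regulators and 11 for reactive glia, and in TNFR2-/- NS vs WT NS 3 for regulators and 1 for reactive glia. Without culture 5 they were 1 for acute phase genes, 0 for regulators and 2 for reactive glia in St cells, 3 and 1 for regulators and reactive glia in NS cells, 2 for flanking genes in WT St vs WT NS, and 0 for proteases in WT St vs WT NS and in TNFR2-/- St vs TNFR2-/- NS. The cause of these shifts was not tested.

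Small differences changed sign. In TNFR2-/- St vs WT St, *Serpina3f* was −0.060 and *Serpina3g* 0.034 without culture 5, and over libraries left out they ranged from −0.060 to 0.15 and from −0.11 to 0.067. In the interaction, *Serpina3g* was 0.034 without culture 5, *Serpina3h* was −0.038 with a pseudocount of 0.1 FPKM and −1.11 with voom, and over libraries left out *Serpina3h* ranged from −0.050 to 0.36 and *Serpina3n* from −0.70 to 0.35. Depth limits *Serpina3b*, *Serpina3c*, *Serpina3k* and *Serpina3m*, which had few or no reads, and the NS level of all members except *Serpina3n*.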
